A study of Mus musculus with 12 samples.

Results

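The genes described here are the GIMAP genes of the mouse, which encode GTPases of the immunity-associated protein family. They were taken by symbol from the deposited count table, which holds 22561 genes, and the 8 members Gimap1, Gimap3, Gimap4, Gimap5, Gimap6, Gimap7, Gimap8 and Gimap9 were all found there. All 8 were also among the 9431 genes with enough counts to be tested. The RNA came from wild-type C57BL6 mice aged 10 weeks, from follicular (FO) B cells of the spleen sorted by surface markers that included B220hi, AA4.1-, CD23+ and CD21mid. The 4 groups of 3 samples each were unstimulated FO B cells and FO B cells that received IFNα, CpG or CpG + IFNα for 12 h. IFNα is a type I interferon, and CpG is an oligodeoxynucleotide that activates Toll-like receptor 9 (TLR9). The sources used here do not say whether unstimulated cells were also kept in culture, nor whether the 3 samples of a group came from separate mice. The list of library barcodes names the 3 samples of each group WT1, WT2 and WT3, without saying that a name stands for 1 mouse, so p-values measure only the spread between these samples.

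GIMAP proteins are found mainly in lymphocytes, where they sit on the membranes of organelles or in the cytosol and bind GTP through a domain related to that of septins. They are best known for the survival and upkeep of resting T and B cells: mice and rats without Gimap5 lose lymphocytes, and loss of Gimap1 depletes mature T and B cells. The members differ in where they sit in the cell and in whether they can hydrolyse GTP, and some bind or recruit others of the family.

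The 8 genes lie side by side on chromosome 6 within 123.6 kb (GRCm38, chr6:48647234-48770851), in the order Gimap8, Gimap9, Gimap4, Gimap6, Gimap7, Gimap1, Gimap5 and Gimap3. Gimap6 and Gimap3 are on the minus strand and the others on the plus strand. Each UMI count stands for 1 molecule caught by its poly(A) tail, so a level here is the gene's part of all counted molecules (CPM, counts scaled to the size of the library, normalized with TMM factors) and was not divided by transcript length. Totals ran from 922450 to 2923865 UMI counts per sample, and the 8 genes together took 817 to 2287 of them. A count near the 3′ end can be shared with a copy of the gene. In the last 500 bases of the transcripts, no window of 50 bases was shared between members. For Gimap1, 5.3% of the windows were shared with a gene outside the family, and for Gimap3 3.53%, while Gimap4, Gimap5, Gimap6, Gimap7, Gimap8 and Gimap9 had none.

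**Figure D1:**
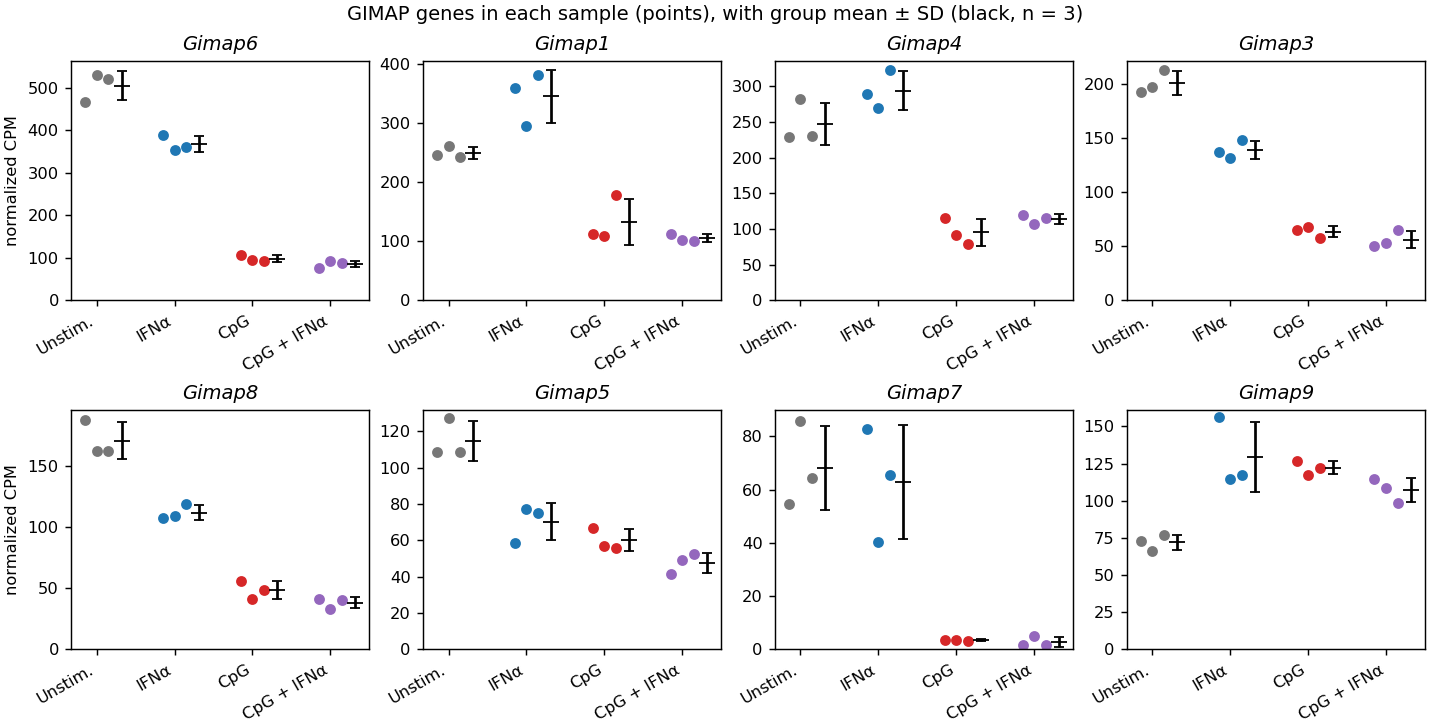
Normalized CPM (vertical axis, from 0) of each GIMAP gene in the 12 samples, in 4 groups along the horizontal axis, with points for samples and black marks for the group mean ± SD (n = 3). For 7 genes all 6 samples with CpG sit below the unstimulated samples, and for Gimap9 all 9 stimulated samples sit above them.

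Unstimulated FO B cells held 1629 ± 77.7 CPM of GIMAP transcripts (SD, n = 3, like all ± values of levels). Gimap6 was the most abundant, with 31.0% ± 1.12 of the family's counts, followed by Gimap1 with 15.4% ± 0.374 and Gimap4 with 15.1% ± 1.16. Gimap6 stood above 97.3% of all tested genes in unstimulated cells, and the least abundant members, Gimap9 and Gimap7, still stood above 73.8% and 72.4% of them. The summed level was 1521 ± 113 CPM with IFNα, 624 ± 36.7 CPM with CpG and 557 ± 6.51 CPM with both. The highest sample with CpG, at 653 CPM, lay below the lowest sample without it, at 1391 CPM. In bulk RNA, fewer cells that express a gene and less of its RNA per cell cannot be told apart.

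Differences were tested with edgeR over all 9431 genes. A gene is said to have risen or fallen where its Benjamini-Hochberg adjusted p was under 0.1, and is called a differentially expressed gene (DEG) where its log2 fold change was also over 1 in size. The 3 stimuli were compared with the same 3 unstimulated samples. If those cells were not cultured, which is not stated, a change shared by the 3 stimuli cannot be told apart from one of culture.

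CpG lowered most of the family and raised 1 member. Of the 8 genes, 5 were down-regulated DEGs (Gimap3, Gimap4, Gimap6, Gimap7 and Gimap8), Gimap1 and Gimap5 fell by less than the threshold of size, and Gimap9 rose. Among all tested genes, 25.5% were down-regulated DEGs and 20.1% up-regulated DEGs. The median log2 fold change of the members was -1.52, against -0.03 over all tested genes. In all 8 genes the 3 CpG samples did not overlap the 3 unstimulated samples, which held for 73.2% of the genes tested. Values for the members follow by their roles.

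Gimap6 and Gimap7 were lowered most. Gimap6 binds the autophagy protein GABARAPL2. Its level was 466, 529 and 521 CPM in unstimulated cells, 389, 353 and 361 CPM with IFNα, 107, 94.1 and 92.4 CPM with CpG, and 76.9, 92.1 and 87.4 CPM with CpG + IFNα. The groups without CpG did not overlap each other or those with CpG. With CpG, Gimap6 was 5.16-fold lower than in unstimulated cells (log2 fold change -2.37, SE 0.118, adjusted p = 5.33e-18), and it went from above 97.3% to above 79.5% of all tested genes.

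Gimap7 is an active GTPase that hydrolyses GTP as a dimer. It had 60, 80 and 73 UMI counts in unstimulated cells (54.6, 85.6 and 64.4 CPM) and 82, 66 and 86 with IFNα (82.7, 40.1 and 65.6 CPM). With CpG it had 6, 5 and 6 counts (3.68, 3.56 and 2.995 CPM), and with CpG + IFNα 3, 14 and 3 (1.64, 4.83 and 1.54 CPM). The least abundant member of the family in unstimulated cells, it went to a trace in every sample with CpG. The fall was 19.6-fold with CpG (95% interval 12.2 to 31.3, adjusted p = 3.7e-13), and its log2 fold change with CpG + IFNα was -4.47. Without the sample of 14 counts, CpG + IFNα replicate 2, the latter was -5.32.

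Gimap3 and Gimap5 encode closely related proteins of organelle membranes, Gimap5 on lysosomes. Gimap3 was at 192, 197 and 213 CPM in unstimulated cells, 137, 131 and 148 CPM with IFNα, 65.1, 67.7 and 57.4 CPM with CpG, and 50.2, 52.8 and 65.3 CPM with CpG + IFNα. Gimap5 was at 108, 127 and 109 CPM, then at 58.5, 77.2 and 74.8 CPM, at 66.9, 57.0 and 55.9 CPM, and at 41.5, 49.0 and 52.4 CPM in the same order of groups. Both genes were highest in the unstimulated samples, without overlap. Gimap3 was 3.18-fold lower with CpG (log2 fold change -1.67, SE 0.128, adjusted p = 2.64e-13). Gimap5 was 1.91-fold lower (log2 fold change -0.93, SE 0.144, adjusted p = 8.75e-07), short of the threshold of size.

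Gimap8, the largest protein of the family with several GTPase domains, was at 188, 163 and 162 CPM in unstimulated cells and at 108, 109 and 119 CPM with IFNα. It was at 55.9, 41.3 and 48.4 CPM with CpG and at 41.5, 33.1 and 40.1 CPM with CpG + IFNα. The samples without CpG were all above those with it, and with CpG the level was 3.51-fold lower (log2 fold change -1.81, SE 0.137, adjusted p = 2.04e-13).

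Gimap1, a Golgi protein that mature lymphocytes need, and Gimap4, which is linked to the death of T cells, were the next most abundant members after Gimap6 in unstimulated cells. Gimap1 was at 246, 262 and 244 CPM in unstimulated cells, 360.2, 295 and 382 CPM with IFNα, 112, 109.8 and 178 CPM with CpG, and 113, 103 and 101 CPM with CpG + IFNα. CpG replicate 3 stood apart from the other 2 of its group. The log2 fold change of Gimap1 with CpG was -0.89 (SE 0.144, adjusted p = 1.89e-06). Without that sample it was -1.15, past the threshold of size, and the family then had 6 down-regulated DEGs with CpG. Gimap4 was at 229, 281 and 230.3 CPM in unstimulated cells, 289, 270.0 and 323 CPM with IFNα, 115, 91.2 and 78.4 CPM with CpG, and 119, 106 and 116 CPM with CpG + IFNα. It was 2.60-fold lower with CpG than in unstimulated cells (log2 fold change -1.38, SE 0.135, adjusted p = 8.48e-11).

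Gimap9, of which less is known, went the other way. It was at 72.8, 66.3 and 76.8 CPM in unstimulated cells, 156, 114 and 118 CPM with IFNα, 126, 118 and 122 CPM with CpG, and 115, 109 and 98.7 CPM with CpG + IFNα. Every stimulated sample lay above every unstimulated sample. The rise was 1.77-fold with IFNα (log2 fold change 0.82, SE 0.142, adjusted p = 3.73e-05), 1.69-fold with CpG (0.76, SE 0.139, adjusted p = 1.43e-05) and 1.49-fold with CpG + IFNα (0.57, SE 0.138, adjusted p = 4.68e-04). None of these passed the threshold of size.

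**Figure D2:**
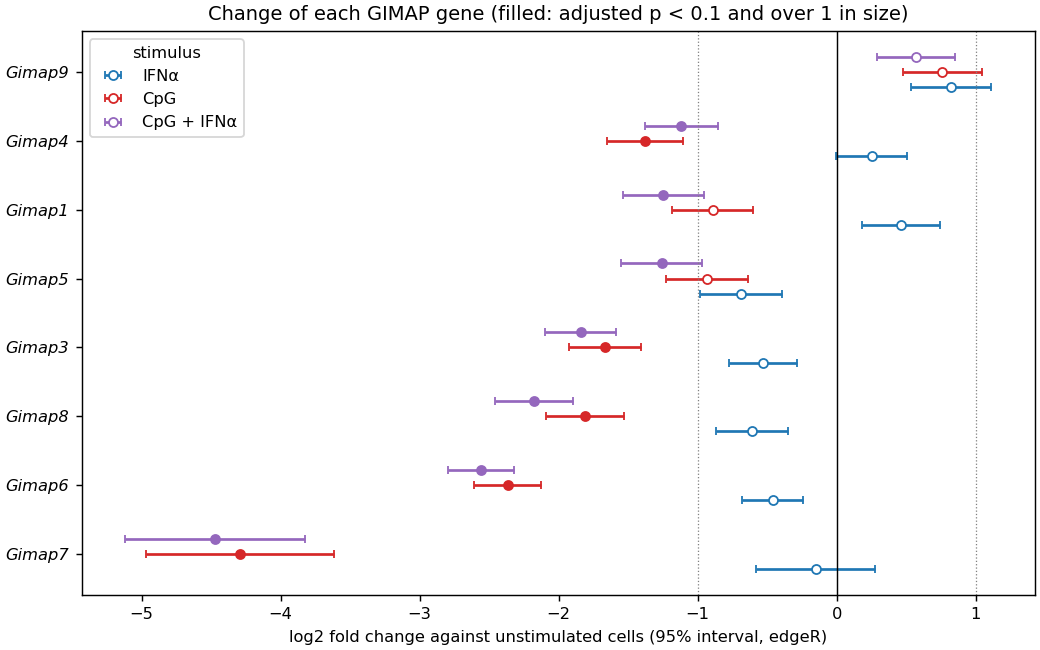
Log2 fold change of each GIMAP gene against unstimulated cells (horizontal axis) with its 95% interval, for IFNα (blue), CpG (red) and CpG + IFNα (purple), filled where the gene was a DEG. With CpG the values run from -4.29 for Gimap7 to 0.76 for Gimap9, and with IFNα from -0.69 for Gimap5 to 0.82 for Gimap9.

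The promoters of Gimap7 and Gimap9 are shown by sequence, because Gimap7 fell most with CpG and Gimap9 alone rose although they lie in 1 cluster. Promoters were taken from RefSeq (GRCm38.p6) as 250 bases before to 50 bases after the start of each gene; the 8 members have 9 of them, since Gimap8 has 2. The 250 bases before the starts of Gimap7 (chr6:48718371-48718620, plus strand) and Gimap9 (chr6:48675885-48676134, plus strand) read, 5′ to 3′:
Gimap7: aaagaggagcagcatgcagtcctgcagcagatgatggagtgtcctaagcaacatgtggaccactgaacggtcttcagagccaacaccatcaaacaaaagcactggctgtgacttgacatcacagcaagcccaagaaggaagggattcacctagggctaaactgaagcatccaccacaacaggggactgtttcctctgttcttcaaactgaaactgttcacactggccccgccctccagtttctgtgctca
Gimap9: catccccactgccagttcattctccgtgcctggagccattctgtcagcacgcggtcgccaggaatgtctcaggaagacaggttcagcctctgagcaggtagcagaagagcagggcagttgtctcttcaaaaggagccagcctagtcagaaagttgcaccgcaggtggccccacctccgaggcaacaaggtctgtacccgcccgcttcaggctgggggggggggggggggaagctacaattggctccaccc

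The promoters were searched on both strands for 4 motifs. The interferon-stimulated response element (ISRE), bound by the factor complex that type I interferon activates, was written as GAAA, any 2 bases and GAAA. The GAS element, bound by STAT dimers, was written as TTCNNNGAA, the AP-1 motif as TGANTCA, and the NF-κB motif as GGG, any 2 bases and TTTCC. AP-1 and NF-κB act downstream of TLR9. None of the 9 promoters held the ISRE, AP-1 or NF-κB letters, which 3.44%, 7.81% and 1.63% of 32851 RefSeq promoters of the same length hold. The GAS letters occurred in 4 of the 9 promoters, those of Gimap6, Gimap7 and Gimap3 and the downstream one of the 2 of Gimap8, and in 8.3% of all promoters. They began 47, 234 and 5 bases before the downstream start of Gimap8 and the starts of Gimap6 and Gimap3, and 40 bases after the start of Gimap7. The sites are shown here with their flanks, the GAS letters in capitals, at chr6:48647304-48647332 (plus strand), chr6:48708460-48708488 (minus strand), chr6:48718651-48718670 (plus strand) and chr6:48770838-48770866 (minus strand):
Gimap8: aacctctttcTTCCTAGAAacatttggaa
Gimap6: ttagaccttgTTCTAAGAAaagagattta
Gimap7: tgcagtcagaTTCTTTGAAg
Gimap3: agcaccccttTTCAGAGAAactcatgtac
These 4 genes all fell with CpG by more than 1 on the log2 scale. Gimap4, which also did, has no GAS letters in this window, and neither do Gimap1, Gimap5 and Gimap9. With IFNα, Gimap3, Gimap6 and Gimap8 fell and Gimap7 gave no difference (log2 fold change -0.15). Gimap5, without the letters, fell most with IFNα (-0.69). A match is a description of letters and not a test of binding.

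IFNα alone split the family. Gimap3, Gimap5, Gimap6 and Gimap8 fell, Gimap1 and Gimap9 rose, and Gimap4 and Gimap7 gave no difference. Of the 8 genes 6 therefore had an adjusted p under 0.1, against 24.3% of all tested genes. In the same 6 genes the samples did not overlap, against 32.4% of all genes. None was a DEG, where 4.07% of all genes were down-regulated and 4.56% up-regulated DEGs. edgeR gave an unadjusted p under 0.05 for 6 members, and DESeq2 also called 0 DEGs and gave 6 with an adjusted p under 0.1.

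The falls with IFNα were 1.61-fold for Gimap5 (log2 fold change -0.69, SE 0.145, adjusted p = 5.77e-04), 1.53-fold for Gimap8 (-0.61, SE 0.127, adjusted p = 4.95e-04), 1.45-fold for Gimap3 (-0.53, SE 0.120, adjusted p = 0.00117) and 1.38-fold for Gimap6 (-0.46, SE 0.107, adjusted p = 0.0017). These 4 genes were lower than in unstimulated cells with IFNα and with CpG alike, and the part of culture in this was not tested. Gimap1 was 1.38-fold higher with IFNα (log2 fold change 0.46, SE 0.138, adjusted p = 0.0151), while CpG lowered it. For Gimap4 the log2 fold change was 0.25 (95% interval -0.0017 to 0.51, adjusted p = 0.169), and for Gimap7 -0.15 (-0.58 to 0.28, adjusted p = 0.681), with samples that overlapped in both genes. Gimap4 reached an adjusted p of 0.0722 without unstimulated replicate 2 and 0.093 without IFNα replicate 2. The sum of the family changed little in size with IFNα, from 1629 to 1521 CPM, while its makeup moved.

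**Figure D3:**
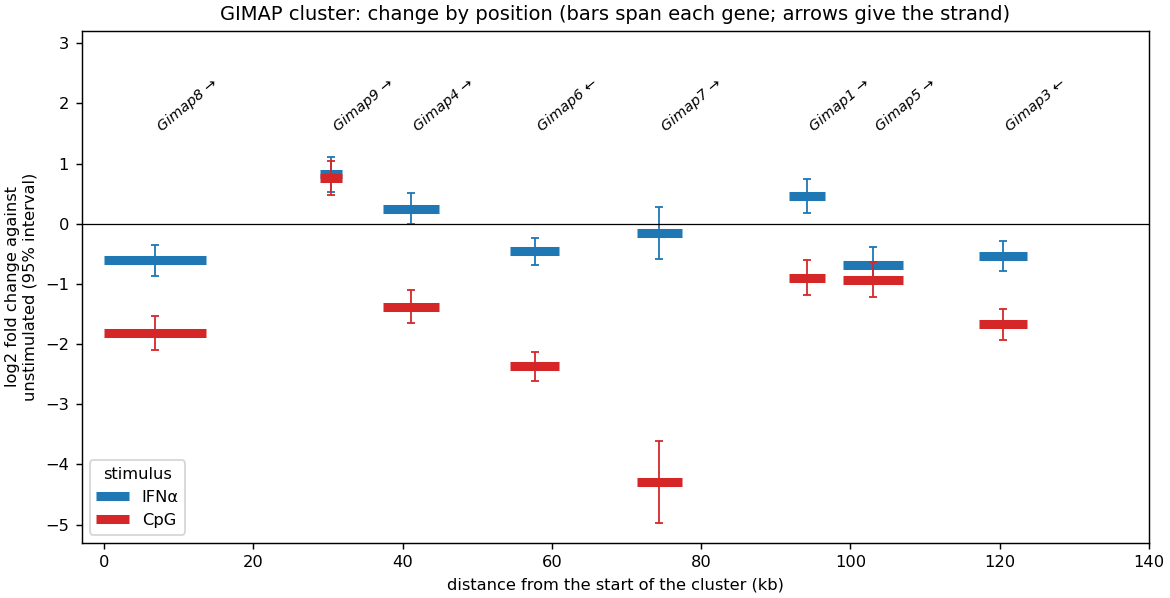
Log2 fold change against unstimulated cells (vertical axis, with 95% intervals) of each GIMAP gene placed by its distance in kb from the start of the cluster (horizontal axis), for IFNα (blue) and CpG (red). Gimap9, at 0.82 and 0.76, lies between Gimap8, at -0.61 and -1.81, and Gimap4, at 0.25 and -1.38.

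With CpG + IFNα, 7 of the 8 genes were down-regulated DEGs and Gimap9 rose. Among all tested genes 25.6% were down-regulated and 20.3% up-regulated DEGs, and the median log2 fold change of the members was -1.55 against -0.01. As with CpG, all 8 genes did not overlap with the unstimulated samples, against 73.9% of all genes. Log2 fold changes were -2.56 for Gimap6 (SE 0.116), -2.18 for Gimap8 (SE 0.137), -1.84 for Gimap3 (SE 0.125), -1.26 for Gimap5 (SE 0.143), -1.25 for Gimap1 (SE 0.144) and -1.12 for Gimap4 (SE 0.129), with adjusted p between 3.79e-19 and 3.22e-09. Gimap4 was close to the threshold of size, at -0.998 without unstimulated replicate 2.

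Adding IFNα to CpG gave no difference in any member that passed the test. In CpG + IFNα against CpG, 0 of 8 genes were DEGs and 0 had an adjusted p under 0.1 by edgeR or by DESeq2, against 2.01% down-regulated DEGs, 2.95% up-regulated DEGs and 15.4% with an adjusted p under 0.1 among all genes. Of the 8 genes 7 were lower by the fitted value, and in 3 of them, Gimap5, Gimap6 and Gimap9, the samples did not overlap, against 28.2% of all genes. By edgeR 3 members had an unadjusted p under 0.05, Gimap1 (log2 fold change -0.35, 95% interval -0.65 to -0.06), Gimap5 (-0.33, -0.62 to -0.03) and Gimap8 (-0.37, -0.68 to -0.06). Gimap4 was at 0.26 (-0.01 to 0.54), Gimap3 at -0.17 (-0.45 to 0.10), Gimap6 at -0.19 (-0.44 to 0.06) and Gimap9 at -0.19 (-0.43 to 0.06). On leaving out a single sample, Gimap1 reached an adjusted p of 0.0522 without CpG replicate 2, 0.0543 without CpG replicate 1 and 0.0841 without IFNα replicate 2, but its difference was -0.07 (adjusted p = 0.852) without CpG replicate 3, the sample that stood apart. Gimap8 reached 0.0804 without CpG replicate 2, and Gimap4 reached 0.0649 without CpG replicate 1. The farthest bound of these 7 intervals from no change was -0.68. Gimap7 was at -0.18 with an interval from -1.32 to 0.95, and a difference in it was not detectable at counts of 3 to 14.

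Adding CpG to IFNα, by contrast, lowered 7 genes, with Gimap9 at the edge of the test. In CpG + IFNα against IFNα, 6 were down-regulated DEGs, against 25.5% of all genes down-regulated and 18.7% up-regulated. The other two were Gimap5 (log2 fold change -0.57, adjusted p = 9.4e-04) and Gimap9 (-0.25, adjusted p = 0.0685). For Gimap9 the adjusted p was 0.123 by DESeq2 and 0.545 without IFNα replicate 1, the highest sample of its group. Between CpG and IFNα given singly, Gimap1, Gimap3, Gimap4, Gimap6, Gimap7 and Gimap8 were down-regulated DEGs with CpG, against 24.7% of all genes down-regulated and 19.4% up-regulated, while Gimap5 (-0.25, 95% interval -0.55 to 0.06, adjusted p = 0.136) and Gimap9 (-0.06, -0.32 to 0.19, adjusted p = 0.657) did not differ by the test.

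From these comparisons each gene's levels can be put in order. Gimap6, Gimap3 and Gimap8 went down in 2 steps, from unstimulated to IFNα and from there to CpG, with no difference found between CpG and CpG + IFNα. Gimap7 had 1 step, between the groups without and with CpG. Gimap1 stood highest with IFNα, then in unstimulated cells, then with CpG and CpG + IFNα together. Gimap4 was also highest with IFNα and next in unstimulated cells, but these 2 groups were not told apart by the test, nor were its 2 groups with CpG. Gimap5 was highest in unstimulated cells, and its 3 stimulated groups lay close, at 70.2 ± 10.2, 60.0 ± 6.06 and 47.6 ± 5.61 CPM with IFNα, CpG and CpG + IFNα, of which the first and last differed. Gimap9 was lowest in unstimulated cells, at 72.0 ± 5.28 CPM, and lay between 107 ± 8.03 and 129 ± 23.4 CPM in the stimulated groups.

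The interaction, taken as the change by IFNα in cells given CpG less that in cells not given CpG, asks whether IFNα acted on a gene alike in both settings. It had an adjusted p under 0.1 for Gimap9 and Gimap1, against 13.4% of all tested genes. Gimap9 rose with IFNα by 0.82 without CpG and was at -0.19 with it, a difference of -1.01 (SE 0.187, adjusted p = 3.46e-04). Gimap1 rose by 0.46 without CpG and was at -0.35 with it, a difference of -0.81 (SE 0.200, adjusted p = 0.00718). With the threshold of size only Gimap9 was called, where 3.17% of all genes were called lower and 3.09% higher, and DESeq2 called 0, at -0.985 for Gimap9. In the other 6 genes the adjusted p was 0.236 or more, with values from -0.03 to 0.36.

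**Figure D4:**
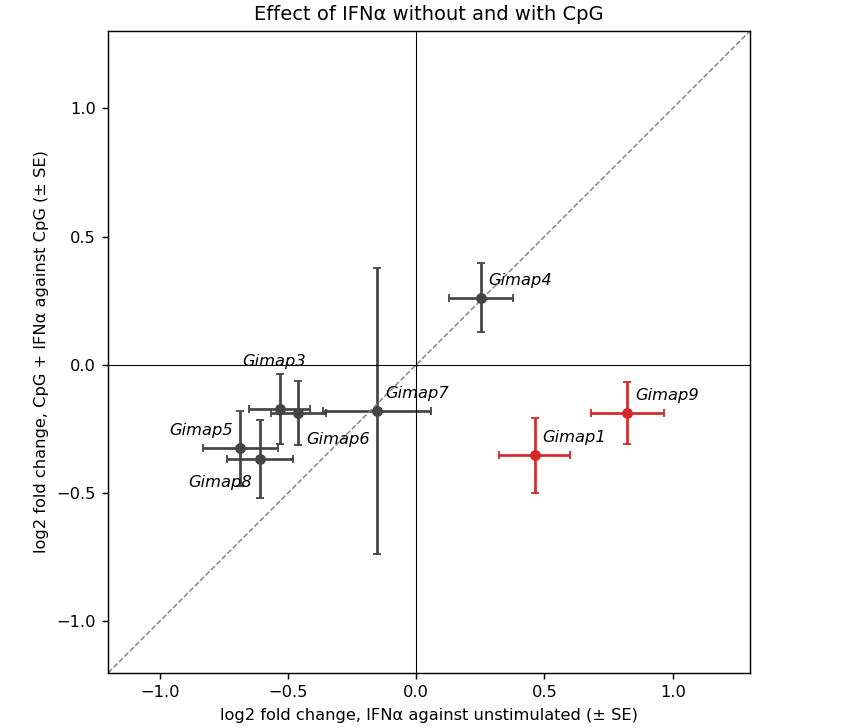
Log2 fold change of each GIMAP gene with IFNα in cells without CpG (horizontal axis) and in cells with CpG (vertical axis), with bars of 1 SE and a dashed line where both are equal. The 2 genes in red, Gimap9 and Gimap1, had an interaction with adjusted p under 0.1 and lie right of the line, at 0.82 and 0.46 without CpG and -0.19 and -0.35 with it.

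The makeup of the family moved with these changes. Gimap6 went from 31.0% ± 1.12 of GIMAP counts in unstimulated cells to 24.2% ± 1.40 with IFNα, 15.7% ± 1.04 with CpG and 15.4% ± 1.504 with both. Gimap9 went the opposite way, from 4.43% ± 0.482 to 8.50% ± 1.27, 19.6% ± 0.520 and 19.3% ± 1.54, so that it was the rarest but one in unstimulated cells and among the largest shares with CpG. Gimap7 went from 4.16% ± 0.763 to 0.549% ± 0.0718 with CpG. The share of Gimap1 was 15.4% ± 0.374 in unstimulated cells, 22.7% ± 1.40 with IFNα and 21.3% ± 5.86 with CpG. Shares add to a fixed whole, so a rise of 1 share lowers others.

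**Figure D5:**
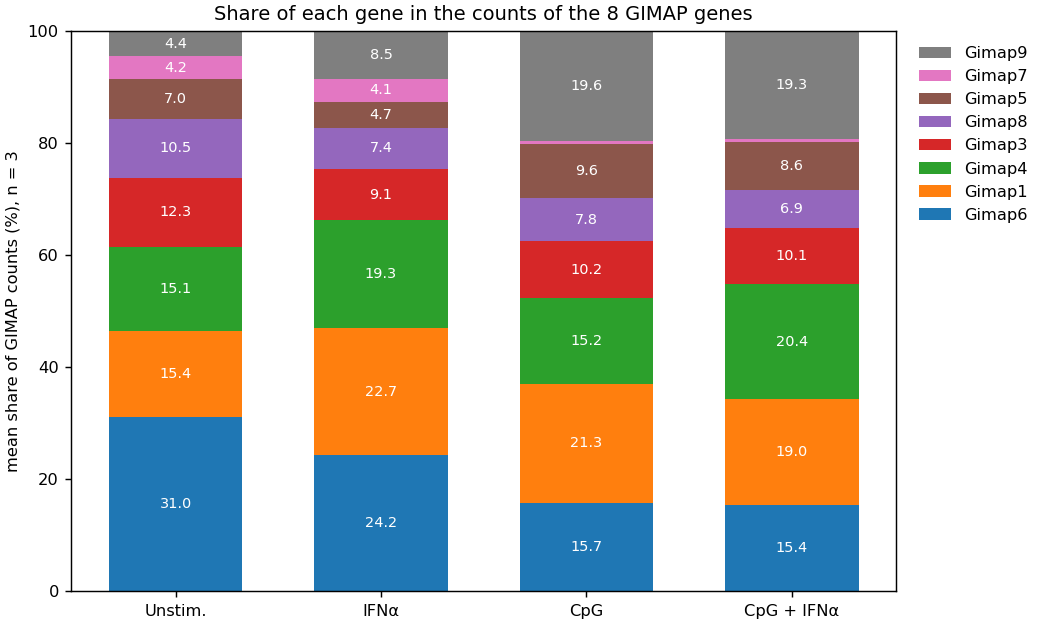
Mean share in percent (vertical axis, n = 3) of each gene in the summed counts of the 8 GIMAP genes, in the 4 groups along the horizontal axis. Gimap6 (blue, at the base) narrows from 31.0% to 15.4% and Gimap9 (grey, at the top) widens from 4.43% to 19.3% between unstimulated cells and CpG + IFNα.

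Across the 12 samples the log2 levels of 6 members had a Pearson's r between 0.994 and 0.924 with the mean of the 8 genes, that of Gimap5 was 0.813 and that of Gimap9 was -0.376. Each member is itself part of that mean, and a member with a wide range such as Gimap7 weighs more in it, so that these values set no order among the members. The closest pair was Gimap3 and Gimap6, which lie apart in the cluster, at 0.986. Outside the family the genes most like the mean were H2-DMb2 (0.998), H2-Ab1 (0.997), H2-Eb1 (0.997), Rhog (0.997) and H2-Aa (0.996). H2-Ab1, H2-Eb1 and H2-Aa encode chains of major histocompatibility complex class II, H2-DMb2 a chain that loads peptide onto it, and Rhog a small GTPase. H2-Ab1 was at 5003 CPM with no stimulus, 3515 with IFNα, 164 with CpG and 106 with both. The 6 samples with CpG stand apart from the 6 without, so that many genes share this pattern: 64 had a correlation over 0.99 and 890 over 0.95. These correlations are a description over samples of 4 groups.

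Neighbours of the cluster moved in both directions. Within 300 kb on either side of or inside it, 43 other genes are annotated in GENCODE M21, 15 are in the table and 6 were tested. With CpG, 3 were down-regulated DEGs, Krba1 (log2 fold change -1.57), Gimap1os (-1.67) and 4833403J16Rik (-1.68), and Repin1, which encodes a zinc finger protein, was an up-regulated DEG (1.72), where 25.5% of all tested genes were down-regulated and 20.1% up-regulated DEGs. With IFNα there was none. Gimap1os is an antisense transcript that shares 1107 exonic bases with Gimap1, and the strand setting of the counting is not given, so reads of the 2 cannot be told apart in that stretch; Gimap1os had 15 to 40 counts per sample and Gimap1 154 to 500. A read-through gene over Gimap7, Gimap1 and Gimap5, Gm28053, had 0 to 3 counts.

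Genes whose proteins bind or act with GIMAP proteins moved in both directions. The list held 9 genes, all tested: the survival and death regulators Bcl2, Bcl2l1, Bax, Bak1 and Bcl2l11, the autophagy genes Gabarap, Gabarapl1 and Gabarapl2, and the kinase gene Gsk3b. With CpG, 4 were up-regulated DEGs, Bcl2l1 (log2 fold change 2.73), Bax (2.36), Gabarapl1 (1.38) and Bcl2l11 (1.33), and Gabarap was a down-regulated DEG (-1.17). Among all tested genes, 20.1% were up-regulated and 25.5% down-regulated DEGs with CpG, and 20.3% and 25.6% with CpG + IFNα. Gsk3b fell with CpG (-0.73, adjusted p = 1.6e-06) short of the threshold of size, and with CpG + IFNα Gsk3b (-1.09) and Gabarap (-1.73) were down-regulated DEGs while Bax (2.72), Bcl2l1 (2.62) and Gabarapl1 (1.74) were up-regulated ones. Gabarapl2, the partner of Gimap6, was at -0.18 (adjusted p = 0.496) with CpG and at -0.81 (adjusted p = 0.00357) with CpG + IFNα. Bcl2 fell with IFNα (-0.92, adjusted p = 8.72e-07) without reaching the threshold of size, rose with CpG + IFNα (0.57, adjusted p = 3.3e-05), and had an interaction term of 1.37 (adjusted p = 4.65e-07). Bcl2l11 had one of -1.12 (adjusted p = 0.00131) and fell in CpG + IFNα against CpG (-0.91, adjusted p = 8.79e-06). The median of the list with CpG was 0.36.

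Genes of lymphocyte quiescence and recirculation mostly went with the family. Of the 15 listed, 14 were tested, and with CpG 11 were down-regulated DEGs and 0 up-regulated, with a median log2 fold change of -3.13. Ccr7 went the other way short of the threshold of size, at 0.63 with CpG (adjusted p = 7.57e-05) and 0.90 with CpG + IFNα (adjusted p = 2.76e-07). Klf2, a transcription factor of resting lymphocytes, was at 1750 ± 517 CPM with no stimulus, 643 ± 88.5 with IFNα, 33.4 ± 3.56 with CpG and 14.8 ± 1.49 with both. Tsc22d3 (-5.15) and Pik3ip1 (-4.97) were also among those that fell with CpG. With IFNα 5 of the list were down-regulated DEGs, among them Klf2 (-1.45), Btg1 (-1.28) and Tsc22d3 (-2.45), and Slfn2, an interferon-inducible gene that keeps lymphocytes at rest, was an up-regulated DEG (2.14). With CpG + IFNα against CpG, where no GIMAP gene passed the test, Klf2 was lower (-1.14) and Slfn2 was higher (1.89). Background shares for these counts are those given for each comparison above.

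GIMAP genes are also expressed by T cells, natural killer cells and endothelium, so markers of these were read beside them. Of the T cell list, 11 of 14 genes are in the table and 2 were tested, Cd2 and Lck. Both were down-regulated DEGs with CpG, where 25.5% of all tested genes were. Lck had 30 to 45 counts with no stimulus, 43 to 66 with IFNα, 3 to 18 with CpG and 6 to 11 with both. The summed level of the list was 299 to 335 CPM with no stimulus, 227 to 264 with IFNα, 6.42 to 19.6 with CpG and 10.7 to 16.9 with both, and Cd2, which mouse B cells also express, made up 274 CPM of the mean of 314 in unstimulated cells. The defining T cell genes Cd3d, Cd3g, Cd8a, Cd8b1, Trbc2, Thy1 and Cd28 had 0 to 2 counts in every sample, Lat had 0 to 4, and Trac had 1 to 8, with its highest count in a CpG + IFNα sample. The natural killer cell list had 0 to 2 counts in sum. The myeloid list had 6 to 23 counts with no stimulus, 8 to 17 with IFNα, 1 to 6 with CpG and 1 to 3 with both, and its part in the result was not tested. With IFNα all of these counts were Adgre1, which had 1 to 3 with no stimulus, while Lyz2, Csf1r, Itgam, Cd14 and S100a8 were at 0. Of the endothelial list, Pecam1, which B cells also express, was at 174 ± 5.23 CPM in unstimulated cells and 64.9 ± 6.56 with CpG, while Cdh5 had 0 to 3 counts and Kdr 0 to 13. The summed level of the erythroid list, which holds 4 haemoglobin genes and Alas2, varied within groups, with 57.4 to 345 CPM with no stimulus, 15.3 to 336 with IFNα, 4.99 to 60.8 with CpG and 5.65 to 72.0 with both, and its part in the result was not tested.

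B cell genes were detected in every group and were lower with CpG. Pax5, the transcription factor that keeps B cell identity, was at 681 ± 32.7 CPM in unstimulated cells and 439.7 ± 47.7 with CpG, a fall short of the threshold of size (log2 fold change -0.63, adjusted p = 7.44e-06). Cd79a, a chain of the B cell receptor complex, went from 695 ± 64.8 CPM to 39.7 ± 1.77 with CpG. Of 6 B cell genes 5 were down-regulated DEGs with CpG, with a median log2 fold change of -2.84, and of 4 genes of follicular B cells all 4 were, 1 of which is also in the list of quiescence and recirculation. Of the marginal zone list, 3 of 5 genes were tested and 2 were down-regulated DEGs with CpG. With IFNα 0 of the 6 B cell genes, 2 of the 4 follicular genes and 2 of the 3 marginal zone genes were down-regulated DEGs. Among all tested genes, 25.5% were down-regulated DEGs with CpG and 4.07% with IFNα. The share of counts from mitochondrial genes was 6.06 to 7.70% with no stimulus, 5.91 to 8.52% with IFNα, 3.29 to 4.85% with CpG and 2.99 to 3.52% with both, and its part in the result was not tested.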

How the data were processed

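BRB-seq, a 3′ method with UMIs, was performed on 12 samples. By the methods of the study and the submitters' processing notes, barcodes were extracted with UMI-tools (1.1.2), reads were trimmed with Trim Galore (0.6.7), mapped to GRCm38 with HISAT2 (2.2.1) and assigned with featureCounts (2.0.1), and unique UMIs were counted per gene, with Tlr9 extended by 3 kb. The deposited values are raw counts, which the authors had not normalized. The 3 columns of the table named naiive, with no stimulus, were read as the unstimulated samples. The annotation release, the strand setting and the treatment of multi-mapped reads are not given in the sources used here.

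From the counts, edgeR 4.0.16 (R 4.3.3) filtered genes with filterByExpr by group, computed TMM factors and fitted the 4 groups in 1 quasi-likelihood model (8 residual degrees of freedom, 9431 genes). P-values were adjusted by Benjamini-Hochberg over all these genes. The thresholds for DEGs were 0.1 for the adjusted p and 1 for the size of the log2 fold change. SEs were derived from the F statistic. Log2 levels for correlations used a prior count of 2. DESeq2 1.42.0 was an alternative, and the others were the normalization, the filter, both thresholds, the depth, a replicate block, the samples fitted and leaving out each sample. The fit was tested on simulated data. All 22561 identifiers matched GENCODE M21, which gave positions and transcripts. No pair of samples within a group was alike enough to be 1 library, and pairs across groups were not compared in this way. The family, the lists and the tests were chosen with earlier results of these data known; the genes named outside the family were the 5 with the highest correlation to its mean, the genes of the lists and the tested neighbours. Protein sequences were not used here. The values of some listed genes are not reported here.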

Additional observations from a re-analysis of the deposited data

Results flagged for a closer look

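The change with IFNα, from unstimulated cells or from CpG, differed for 2 of the 8 GIMAP genes by the interaction term of edgeR. That compares with 13.4% of all tested genes with an adjusted p under 0.1. If unstimulated cells were not cultured, which is not stated, IFNα and the time in culture cannot be told apart in the first of these changes. Gimap9 also passed the threshold of size, though by DESeq2 its difference was -0.99, just short of it, and Gimap1 did not pass. For Gimap9 the difference was -1.01 on the log2 scale (adjusted p = 3.46e-04), from a rise of 0.82 without CpG to -0.19 with it. For Gimap1 the difference was -0.81 (adjusted p = 0.00718), from 0.46 to -0.35. Over the 19 other settings in which the term could be fitted, the adjusted p stayed at or under 0.00227 for Gimap9 and 0.0733 for Gimap1, the latter without CpG replicate 3, and the values ran from -1.10 to -0.88 and from -0.94 to -0.54.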

How the results depend on the processing

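The counts of DEGs with IFNα, with CpG, with CpG + IFNα and with CpG + IFNα against CpG or IFNα stayed within 1.5 times under every alternative except a log2 threshold of 2, which left 2 members with CpG, 3 with CpG + IFNα and 2 against IFNα, since fewer genes are that far changed. Leaving out 1 sample gave 5 to 6 with CpG and 6 to 7 with CpG + IFNα. The 1 DEG of the interaction, Gimap9, became 0 with RLE factors, library size only, without rRNA and mitochondrial genes, without the filter, with DESeq2 and at a threshold of 2, and 0 to 1 on leaving out a sample, because its value lies next to the threshold of 1 (its adjusted p stayed under 0.1).

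Values that changed sign were all small and past no test. The interaction of Gimap7, main value -0.03, was 0.0469 with library size only, 0.0399 without rRNA and mitochondrial genes, 0.0235 without the filter and 0.0832 at a common depth, that of the shallowest sample. On leaving out a sample it ran from -0.90 to 0.22, that of Gimap4 from -0.13 to 0.17, Gimap7 with IFNα from -0.37 to 0.13 and Gimap7 in CpG + IFNα against CpG from -1.05 to 0.0751, and the cause was not tested. Without the filter the median of all genes shifted by 0.118 with CpG + IFNα, and Gimap4 was at -0.996, under the threshold. Of the 5 genes most like the family 4 were kept at a prior count of 5.

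The deviations of same-numbered samples correlated from -0.065 to 0.0469 with unstimulated samples and from 0.00865 to 0.205 among the stimulated groups, where 5 of 9 were over 0.1. In CpG + IFNα against CpG or IFNα every sample correlated best with its own number, a hint from the data, but no 2 groups had all 3 pairs over 0.1, and the shared names WT1 to WT3 in the barcode list are not said to be mice, so the numbers were not taken as pairs. With the replicate number as a block, 0 members were DEGs with IFNα, 5 with CpG, 7 with CpG + IFNα, 0 and 6 in CpG + IFNα against CpG and IFNα, and 1 in the interaction, the same counts as without it. Counts of 3 to 14 limit Gimap7 with CpG.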
